A study of Arabidopsis thaliana with 16 samples.

Results

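LEC1 (AT1G21970), LEC2 (AT1G28300), FUS3 (AT3G26790), ABI3 (AT3G24650) and AGL15 (AT5G13790) are transcription factor genes of Arabidopsis embryo identity. They were chosen by name, because embryo identity genes are known targets of BABY BOOM and PLT2, relatives of the PLETHORA (PLT) proteins assayed here, and they are 5 of the 27444 nuclear protein-coding genes of the annotation. Every peak that overlapped the stretch from 3000 bp upstream of the gene start to 1000 bp past the gene end was taken, which gave 101 of the 264371 nuclear peaks of the PLT libraries and 14 of the 27157 nuclear peaks of the GFP libraries. The peaks came from DAP-seq (DNA affinity purification sequencing), in which a tagged protein made outside the plant is mixed with naked fragmented genomic DNA and the recovered DNA is sequenced. A peak therefore shows that a DNA stretch was recovered in the tube, without chromatin and without partner proteins of the cell. The GFP libraries had peaks too, so a peak alone does not show that the tagged protein bound there. According to the paper, the DNA kept the methylation of its tissue, which can affect binding. The proteins were 3xFLAG-tagged PLT7, PLT3 and PLT5, with GFP as the control protein. Each was assayed on Col-0 DNA from inflorescence meristems (IM) of plants grown on soil for 4 to 8 weeks and on Col-0 DNA from shoot apical meristems (SAM) of seedlings grown for 9 days, with 2 replicates per protein and DNA source and 16 libraries in all. A replicate was a pool of 500 dissected meristems. The spread between replicates can include differences between pools and between assays, which cannot be told apart.

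The PLT proteins are AP2-domain transcription factors that act in meristems and embryos. According to the paper, shoot and inflorescence meristems can be maintained without PLT activity, unlike the root apical meristem. The LAFL genes, named after LEC1, ABI3, FUS3 and LEC2, start and maintain the embryo programme and later drive seed maturation, and ectopic LEC1 or LEC2 turns seedling tissue into somatic embryos. LEC1 is an NF-YB subunit of the CCAAT-binding complex. LEC2, FUS3 and ABI3 are related B3-domain proteins that bind RY elements in seed gene promoters, with ABI3 also relaying the abscisic acid signal. AGL15 is a MADS-domain protein that accumulates in embryos and promotes somatic embryogenesis. After germination the LAFL genes are silenced by the VAL proteins and Polycomb repression, marks that DAP-seq does not see.

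The main PLT peak sites of the 5 genes are shown with their DNA sequence, without any methylation it carried. They were chosen for a peak in both PLT7 IM libraries and a high mean PLT7 fold enrichment. A site is a cluster of PLT peak summits with gaps of at most 100 bp, and it is named by the median summit position relative to the gene start along the gene. Each sequence has 60 bases from the RefSeq copy of TAIR10.1, read 5′ to 3′ on the strand given. Capitals mark the 16 bases near the summit that score highest against a binding matrix learned from PLT7 IM summits of chromosomes 2 and 4, which hold none of the 5 genes.
LEC1 −58, chr1:7729674-7729733, plus strand: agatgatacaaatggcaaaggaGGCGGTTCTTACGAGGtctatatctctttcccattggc
LEC2 +3415, chr1:9896433-9896492, plus strand: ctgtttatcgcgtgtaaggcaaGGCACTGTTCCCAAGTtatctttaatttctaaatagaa
LEC2 −954, chr1:9900801-9900860, minus strand: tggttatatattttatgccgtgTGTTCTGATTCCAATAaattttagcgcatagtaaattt
FUS3 +570, chr3:9855614-9855673, plus strand: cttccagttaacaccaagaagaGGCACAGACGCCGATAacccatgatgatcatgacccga
ABI3 −634, chr3:8996725-8996784, plus strand: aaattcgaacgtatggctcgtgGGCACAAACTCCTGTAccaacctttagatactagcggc
AGL15 −726, chr5:4451654-4451713, minus strand: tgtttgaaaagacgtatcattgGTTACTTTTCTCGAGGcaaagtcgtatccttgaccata
AGL15 +220, chr5:4450711-4450770, minus strand: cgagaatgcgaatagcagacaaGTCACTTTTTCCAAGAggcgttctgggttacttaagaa

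The matrix read NNCNCNNNTNNCNANN, with a letter where 1 base had a frequency of at least 60% and N elsewhere. On both strands of windows of 50 bp to either side of a summit, 54.2% of 18020 PLT7 IM summits of the other chromosomes scored above the threshold that 5% of windows 500 bp away passed. At the 5 genes, 9 sites had a peak in both PLT7 IM libraries and 5 of them passed this threshold, or 55.6%, beside the 54.2% of all summits. The highest score was 12.2 for AGL15 −726, above 99.8% of the background windows, and the match was centred on the median summit. AGL15 +220 scored 12.1 and LEC2 +3415 scored 11.9, above 99.8% and 99.7% of the background windows, and both matches carried all 5 letters of the matrix. FUS3 +570 scored 10.3 and LEC2 +2658 scored 9.54. LEC2 −954, AGL15 +2873, LEC1 −58 and ABI3 −634, at 7.92, 7.09, 6.95 and 6.60, did not reach the threshold of 8.24. For the 5 sites above the threshold, the centre of the match lay at most 6 bp from the median summit. A match is a description of the letters, and a window without one says nothing about whether the protein binds it.

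**Figure D1:**
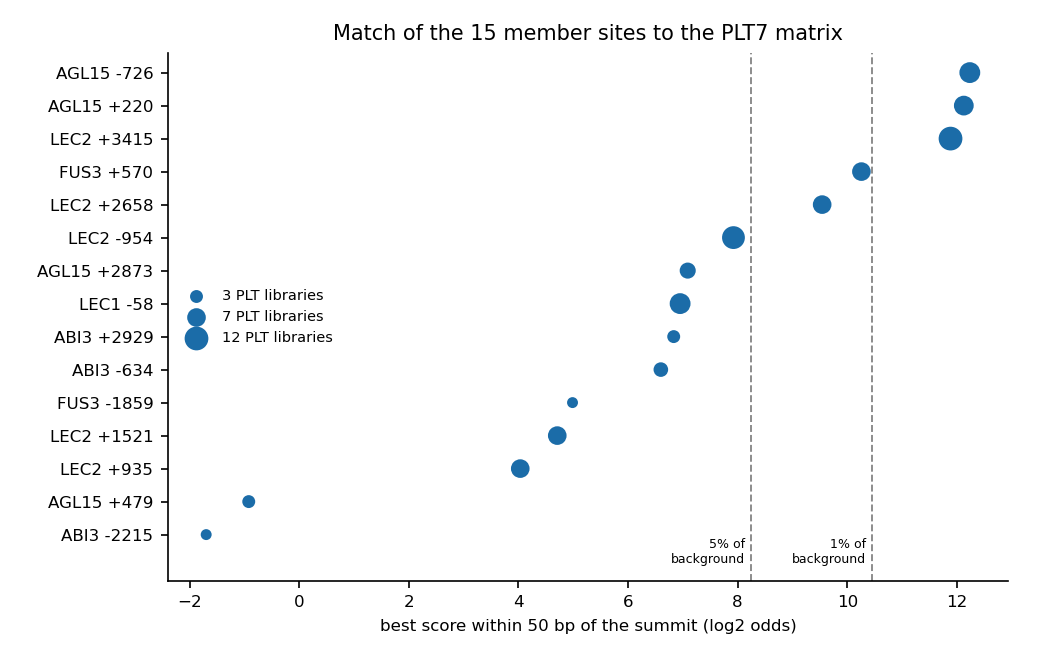
The horizontal axis gives the best score of the PLT7 matrix, in log2 odds, within 50 bp of the median summit of the 15 sites with a peak in at least 2 PLT libraries, point size gives the number of PLT libraries with a peak, and dashed lines mark the scores that 5% and 1% of background windows exceed. AGL15 −726, AGL15 +220 and LEC2 +3415 lie above both lines, FUS3 +570 and LEC2 +2658 between them, and the other 10 sites below.

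All 5 genes had a PLT7 peak in the IM, and LEC2 had a peak in every PLT library. A gene was counted for a protein and DNA source when both replicates had a peak in its stretch. By this rule, PLT7 IM had 5 of the 5 genes, PLT3 IM 4, PLT5 IM 3 and GFP IM 3. PLT7 SAM had 4, PLT3 SAM 3, PLT5 SAM 2 and GFP SAM 1. Since peaks were dense, these counts stand beside high shares of all genes: 84.9% for PLT7 IM, 80.7% for PLT3 IM, 30.6% for PLT5 IM and 20.9% for GFP IM, and 78.0% for PLT7 SAM, 72.9% for PLT3 SAM, 13.0% for PLT5 SAM and 10.1% for GFP SAM. For PLT7 and PLT3 a share of 3 to 5 of the 5 genes is near these backgrounds. With 2 libraries a side, an exact permutation test cannot give a p below 0.333, so the counts carry no test. Both replicates could meet the rule with peaks at different positions. This was the case for FUS3 and ABI3 in PLT3 IM, for ABI3 in PLT5 IM and for ABI3 in GFP SAM. Some counted peaks also overlapped GFP peaks of the same DNA source. Removal of such peaks took LEC1 out of PLT7 IM, FUS3 out of PLT3 IM and ABI3 out of PLT5 IM.

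The libraries differed in scale. The nuclear peaks numbered 26539 to 32116 in the PLT7 libraries, 23228 to 30941 in the PLT3 libraries, 3837 to 10427 in the PLT5 libraries and 5026 to 9933 in the GFP libraries. The median fold enrichment over the local background was 3.54 to 3.75 for PLT7, 2.52 to 2.59 for PLT3, 1.99 to 2.25 for PLT5 and 4.11 to 4.69 for GFP. Read depth is unknown here, so levels of different proteins are tested only after each library was centred, and a site with no listed peak was not detected at that depth. PLT5 SAM replicate 2, with 3837 nuclear peaks, had 2 peaks at the 5 genes, 1 at LEC1 and 1 at LEC2.

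**Figure D2:**
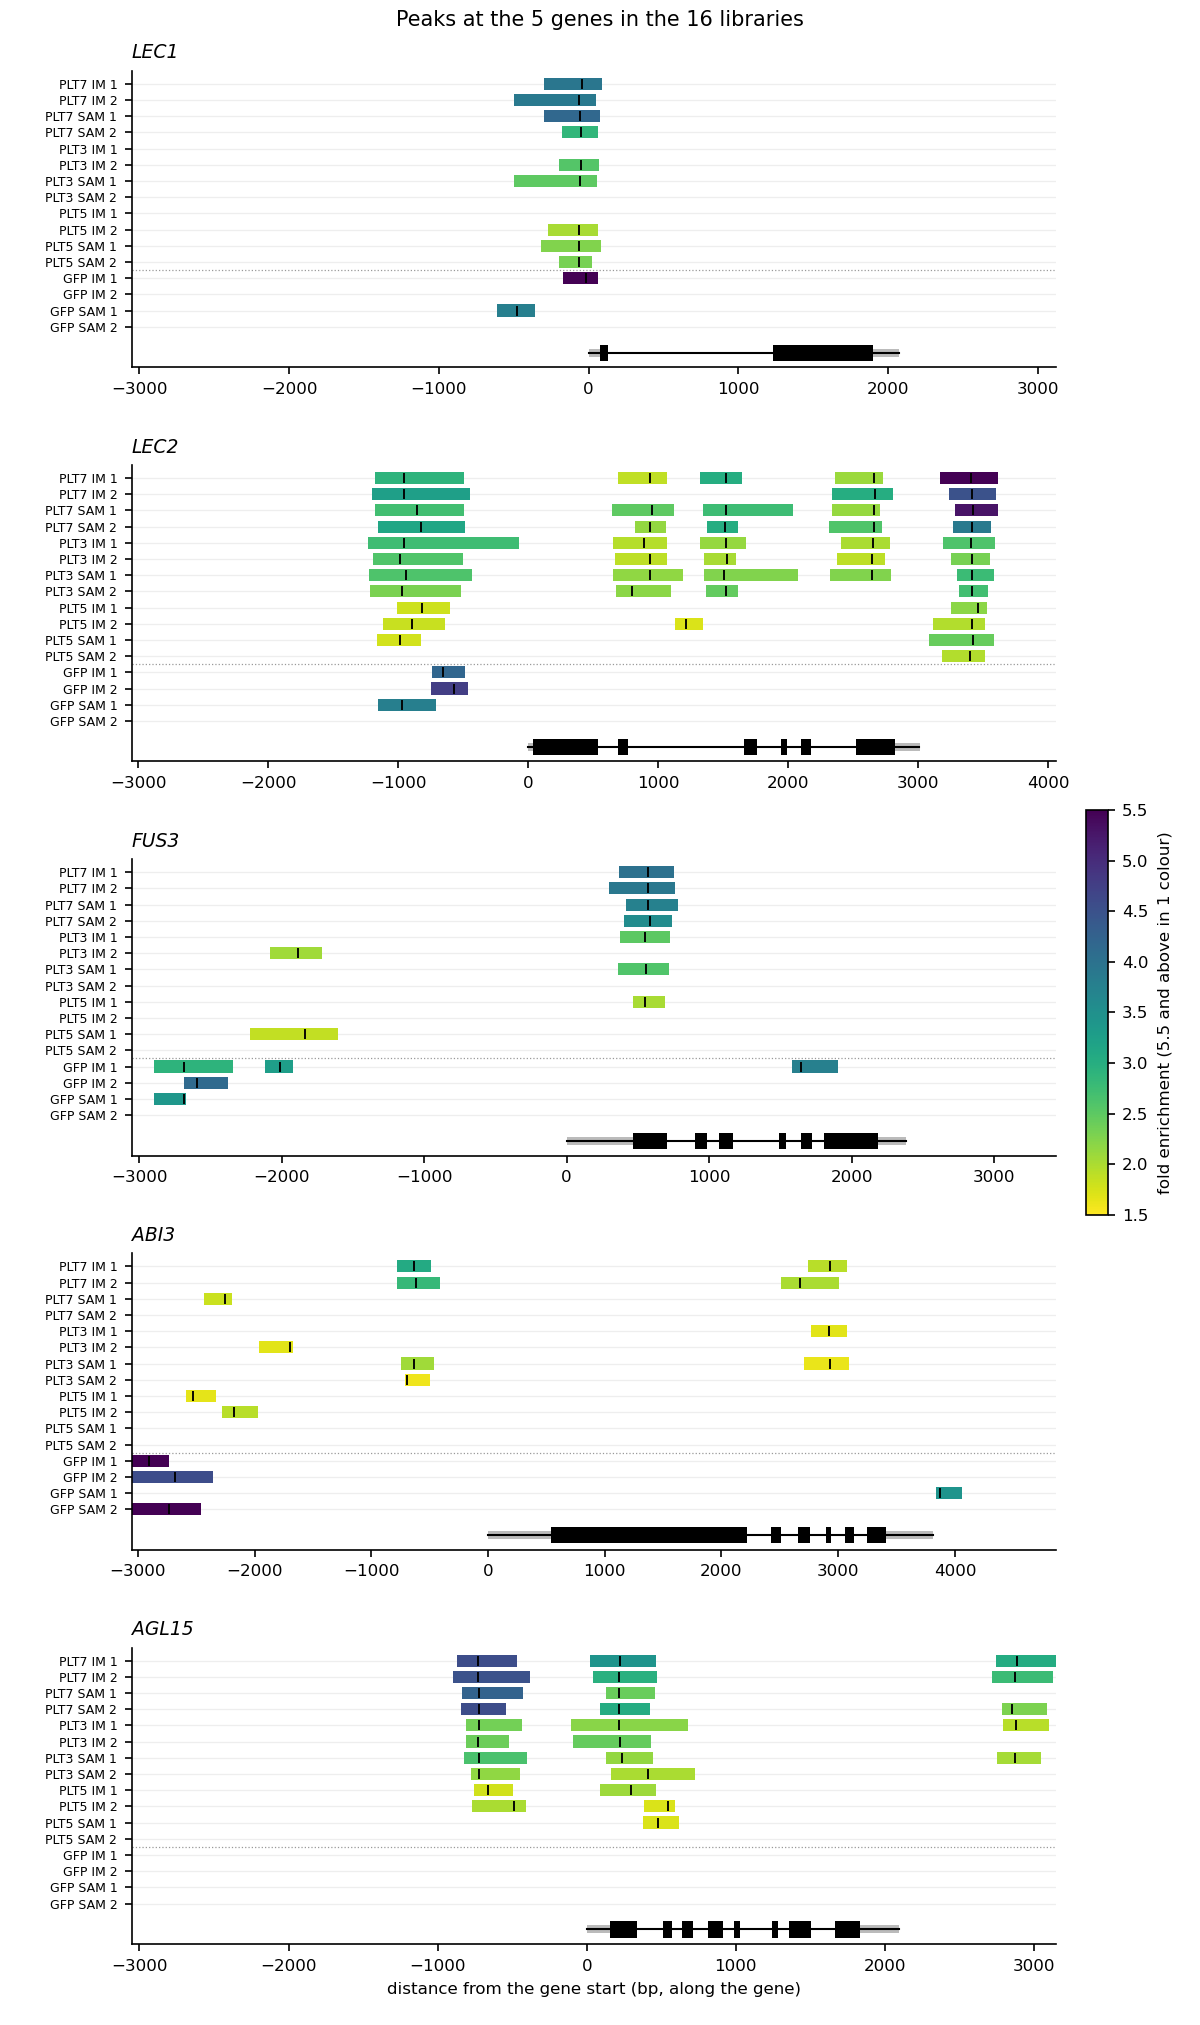
The horizontal axis gives the distance from the gene start in bp along each gene, rows are the 16 libraries with the GFP libraries below the dotted line, bars span peaks coloured by fold enrichment with summits as black ticks, and black boxes at the bottom are coding exons with untranslated exons in grey. LEC1 and FUS3 each have 1 column of PLT7 peaks, LEC2 has 5 columns of which the one at +3415 fills all 12 PLT rows, and the AGL15 panel holds no GFP peak. Peaks that pass the edge of a stretch are clipped there.

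LEC1 had a single PLT site, at −58 in its proximal promoter. It was present in 9 of 12 PLT libraries with summits within 19 bp. Fold enrichment was 3.92 and 3.88 in PLT7 IM and 4.16 and 2.87 in PLT7 SAM. PLT3 had a peak of 2.57 in IM replicate 2 and of 2.49 in SAM replicate 1 only, and PLT5 had 2.02 in IM replicate 2 and 2.26 and 2.32 in the SAM. All 4 PLT7 values were above both PLT3 values before scaling, the same order as that of the library medians. LEC1 −58 lay near the middle of the PLT7 libraries or below: its percentile by fold enrichment was 26.6 to 61.6 in the PLT7 libraries. GFP IM replicate 1 had a peak here too, with its summit at −15 and a fold enrichment of 7.15, at percentile 92.0 of that library, and removal of PLT peaks that overlap GFP peaks of the same DNA source took LEC1 out of PLT7 IM. In the SAM the only GFP peak at LEC1 had its summit at −477, and LEC1 stayed in PLT7 SAM and PLT5 SAM after the removal.

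LEC2 had the most PLT sites of the 5 genes, 5 with a peak in at least 2 PLT libraries, against a median of 2 over all genes. As many or more sites were found at 8.20% of genes, and the LEC2 stretch of 7010 bp was longer than the median of 6078 bp. The site at +3415 lies 406 bp past the gene end, in no annotated gene, and was the only member site with a peak in all 12 PLT libraries. Its fold enrichment was 5.53 and 4.50 in PLT7 IM and 5.29 and 3.86 in PLT7 SAM. PLT3 had 2.62 and 2.32 in the IM and 2.77 and 2.71 in the SAM. PLT5 had 2.20 and 1.95 in the IM and 2.43 and 1.97 in the SAM. No GFP library had a peak there. All 3 proteins thus had peaks at the site, with summits within 58 bp, and its percentile by fold enrichment was 59.1 to 78.6 for PLT7, 32.4 to 61.3 for PLT3 and 18.9 to 82.7 for PLT5.

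The promoter site of LEC2, at −954, had a peak in 11 PLT libraries, all but PLT5 SAM replicate 2. PLT7 had 2.91 and 3.26 in the IM and 2.70 and 3.14 in the SAM. PLT3 had 2.75 and 2.60 in the IM and 2.61 and 2.30 in the SAM, and PLT5 had 1.80 and 1.83 in the IM and 1.78 in SAM replicate 1. The PLT7 and PLT3 ranges overlapped. The peaks were broad, 670 to 1160 bp in the PLT7 and PLT3 libraries, with summits spread over 168 bp, and all 11 overlapped GFP peaks of the same DNA source, whose summits were at −655 and −575 in the IM and at −971 in SAM replicate 1. The remaining 3 LEC2 sites lay inside the gene and had no GFP peak: +935 and +1521 in intron 2, and +2658 in the coding part of the last exon. Each had a peak in 7 PLT libraries, with PLT7 at 1.89 to 3.02 and PLT3 at 1.89 to 2.46 over the 3 sites, and none in a PLT5 library. A PLT5 IM replicate 2 peak of 1.73 at +1213 had no other summit within 100 bp, though its span overlapped peaks of the sites on either side.

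FUS3 had its main PLT site within its first coding exon. The site at +570 had fold enrichments of 4.02 and 3.90 in PLT7 IM and 3.76 and 3.57 in PLT7 SAM, a mean of 3.81 ± 0.195 (SD, n = 4). PLT3 had a peak of 2.51 in IM replicate 1 and 2.60 in SAM replicate 1, and PLT5 of 2.02 in IM replicate 1. Both PLT3 peaks were below all PLT7 values, before scaling, the same order as that of the library medians. In all 4 PLT7 libraries the percentile was 51.0 to 59.4. The GFP peaks of FUS3 lay elsewhere, at −2688 to −2014 and at +1647, and none overlapped this site. Upstream, a weak site at −1859 had a PLT3 IM replicate 2 peak of 2.06 and a PLT5 SAM replicate 1 peak of 1.87, and the PLT3 peak overlapped a GFP IM peak.

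ABI3 had the weakest PLT peaks. Its highest fold enrichments were 3.08 and 2.82 at −634 in PLT7 IM, at percentiles of 32.7 and 28.0. No PLT7 SAM library had a peak there. PLT3 had the reverse pattern at −634, with 2.07 and 1.60 in the SAM and no peak in the IM, and the last of these was at percentile 0.273 of its library. Inside the gene, +2929 in exon 4 had peaks of 1.93 in PLT7 IM replicate 1, 1.68 in PLT3 IM replicate 1 and 1.64 in PLT3 SAM replicate 1. At +2674 in exon 3 there was a peak of 2.01 in PLT7 IM replicate 2, which overlapped the PLT7 IM replicate 1 peak at +2929. The other upstream peaks, at −1696, −2215 and −2526, had 1.66 to 1.93 and no site among them was found in both replicates of a protein. GFP peaks of the IM at −2908 and −2684 had 6.29 and 4.57, at percentiles of 83.5 and 56.1 of their libraries, and one of GFP SAM replicate 2 at −2734 had 5.59, at percentile 84.8. The GFP peak of SAM replicate 1 lay past the gene end, at +3868, with 3.43 at percentile 27.7. ABI3 was the only one of the 5 genes with a GFP peak in all 4 GFP libraries.

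AGL15 was the only one of the 5 genes with no GFP peak. Its promoter site at −726 had 4.57 and 4.50 in PLT7 IM and 4.24 and 4.56 in PLT7 SAM, against 2.35 and 2.40 in PLT3 IM and 2.66 and 2.16 in PLT3 SAM. PLT5 had a peak of 1.79 in IM replicate 1. The PLT7 mean was 4.47 ± 0.158 and the PLT3 mean 2.39 ± 0.203 (SD, n = 4 each), and the PLT7 and PLT3 ranges did not overlap before scaling. This order was usual: without centring, 11163 of the 12218 sites tested below were called higher in PLT7 than in PLT3. The percentile was 62.8 to 76.0 in the PLT7 libraries and 24.3 to 54.4 in the PLT3 libraries. The neighbouring gene PPH (AT5G13800), which encodes pheophytinase, ends at −775, so the site lies between the 2 genes. Within AGL15, the site at +220 in the first coding exon had 3.43 and 2.97 in PLT7 IM and 2.42 and 3.04 in PLT7 SAM, 2.21 and 2.45 in PLT3 IM, 2.15 in PLT3 SAM replicate 1 and 2.09 in PLT5 IM replicate 1. A further site at +2873, 777 bp past the gene end and within the neighbour AT5G13780, had peaks in 3 PLT7 libraries, at 2.28 to 3.04, and in 2 PLT3 libraries, at 1.93 and 2.04. The site at +479 in intron 1 had 1 PLT3 peak and 2 PLT5 peaks of 1.73 to 2.00. The PLT5 IM replicate 2 peak of 2.00 at −488 had no other summit within 100 bp and formed its own site. Its span covered the median summit of −726 and overlapped the PLT5 IM replicate 1 peak there.

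**Figure D3:**
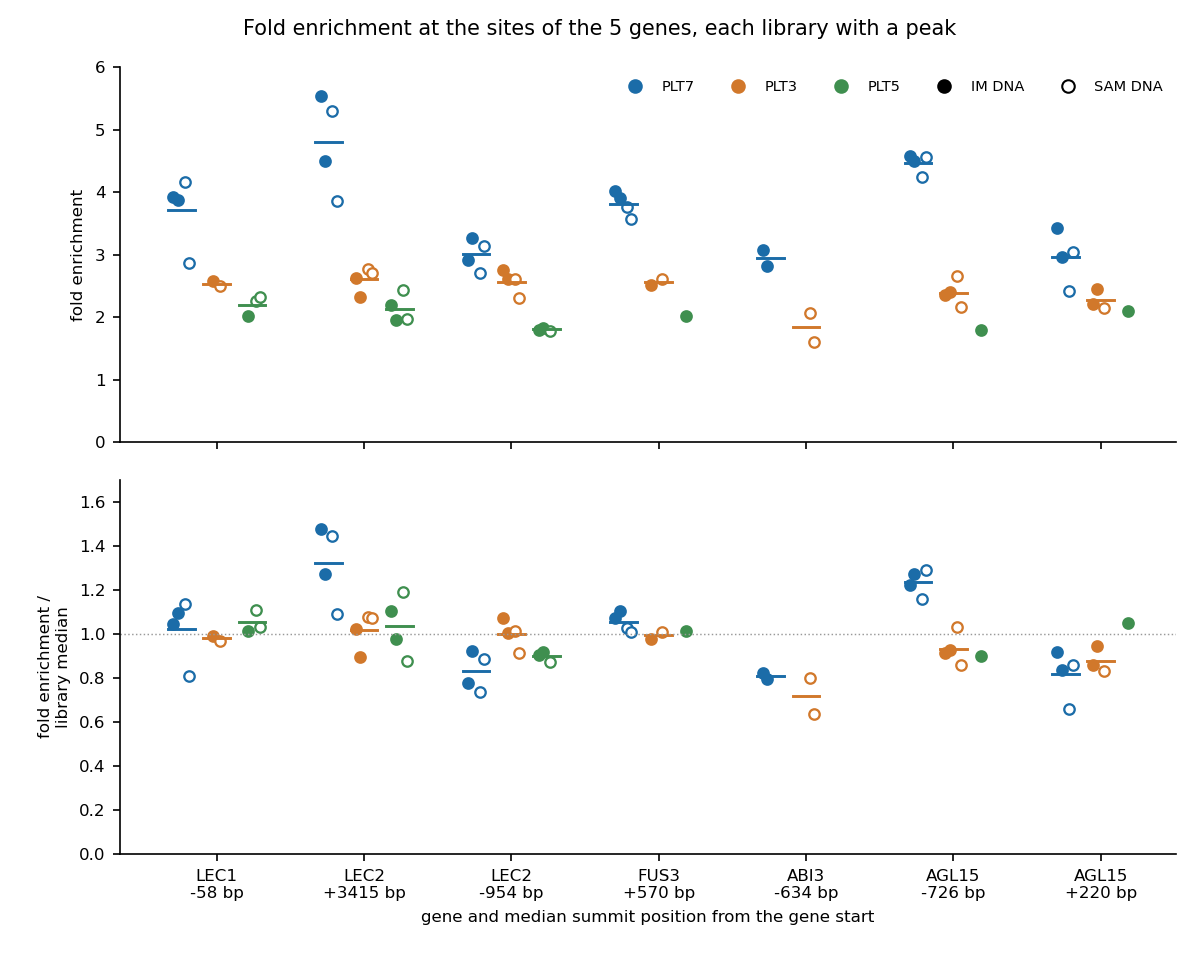
The upper panel gives fold enrichment and the lower panel the same values divided by the median of all peaks of the library, for 7 member sites on the horizontal axis, with each library that had a peak as a point (filled for IM DNA, open for SAM DNA) and the mean of a protein as a line where it had over 1 value. The sites were chosen for a peak in both PLT7 IM libraries and a high mean PLT7 fold enrichment. The PLT7 mean is the highest at all 7 sites in the upper panel, the same order as that of the library medians. The choice of sites by their PLT7 values also favours this order. In the lower panel the PLT7 mean is below that of PLT3 at LEC2 −954 and AGL15 +220. It is below that of PLT5 at LEC1 −58 and LEC2 −954.

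Whether PLT7 and PLT3 differed in relative binding strength was tested with limma on log2 fold enrichment, at the 12218 sites with a peak in all 8 PLT7 and PLT3 libraries, with each library centred on its median over these sites. Of the sites, 36.9% were called at an adjusted p below 0.05, 2109 higher and 2405 lower in PLT7. The split turned on the centre: 11163 sites were called higher and 8 lower without centring, and 4112 higher and 857 lower when each library was centred on all its peaks. The 5 genes had 3 sites in this test and 1 was called. At LEC2 −954, PLT7 was lower than PLT3 by a difference of −0.43 (SE 0.11, limma adjusted p = 0.00185). All PLT7 and PLT3 peaks at this site overlapped GFP peaks of the same DNA source, and a share of the signal common with GFP was not tested. The difference there was −0.27 when centred on all peaks (limma adjusted p = 0.0507), past the threshold no longer, and 0.23 without centring. LEC2 +3415 had a difference of 0.21 (95% interval 0.0024 to 0.42, limma adjusted p = 0.103) and AGL15 −726 of 0.25 (95% interval 0.036 to 0.45, limma adjusted p = 0.0583), neither past the threshold. Centred on all peaks, both were called, at 0.37 (limma adjusted p = 0.00739) and 0.41 (limma adjusted p = 0.00293). With the first centre, LEC2 +3415 was also called without PLT7 SAM replicate 2 (limma adjusted p = 0.0317) and AGL15 −726 without PLT7 SAM replicate 1 (limma adjusted p = 0.0286). Under both centres LEC2 +3415 and AGL15 −726 had positive differences and LEC2 −954 a negative one. The other sites of the 5 genes lacked a peak in at least 1 of the 8 libraries and were not tested.

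Few sites were called between DNA sources. The limma fit called 0.0573% of the sites for IM minus SAM in PLT7 and 0.0246% in PLT3, and 0% for the change of the PLT7 minus PLT3 difference between IM and SAM, out of 12218 sites each. At an unadjusted p below 0.05 there were 1360, 1169 and 538 sites in these 3 comparisons. None of the 3 member sites was called in any of these comparisons. For PLT7, the IM minus SAM differences were 0.0066 (95% interval −0.29 to 0.30) at LEC2 +3415, −0.054 (−0.36 to 0.25) at LEC2 −954 and −0.090 (−0.39 to 0.20) at AGL15 −726. For PLT3 they were −0.22 (−0.51 to 0.077), 0.061 (−0.25 to 0.37) and −0.080 (−0.37 to 0.22) at the same sites.

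PLT5 could be compared at the 1649 sites with a peak in all 12 PLT libraries, of which LEC2 +3415 was the only one at the 5 genes. Centred on the median over these sites, PLT7 was lower than PLT5 there by a difference of −0.39 (SE 0.095, limma adjusted p = 0.000514), beside 46.0% of sites called, 306 higher and 453 lower. PLT3 was lower than PLT5 by −0.37 (SE 0.095, limma adjusted p = 0.00158), beside 35.8% of sites called, 244 higher and 347 lower. Both values depended on the centre. Centred on all peaks of each library, the PLT7 minus PLT5 difference was 0.35 (limma adjusted p = 0.00514, with 1491 sites higher and 54 lower) and the PLT3 minus PLT5 difference −0.024 (limma adjusted p = 0.867, with 996 sites higher and 43 lower). Without centring the differences were 1.16 and 0.29, with 1617 and 1527 sites higher and 9 and 5 lower. The order of the proteins at LEC2 +3415 relative to PLT5 is therefore not settled by these files.

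**Figure D4:**
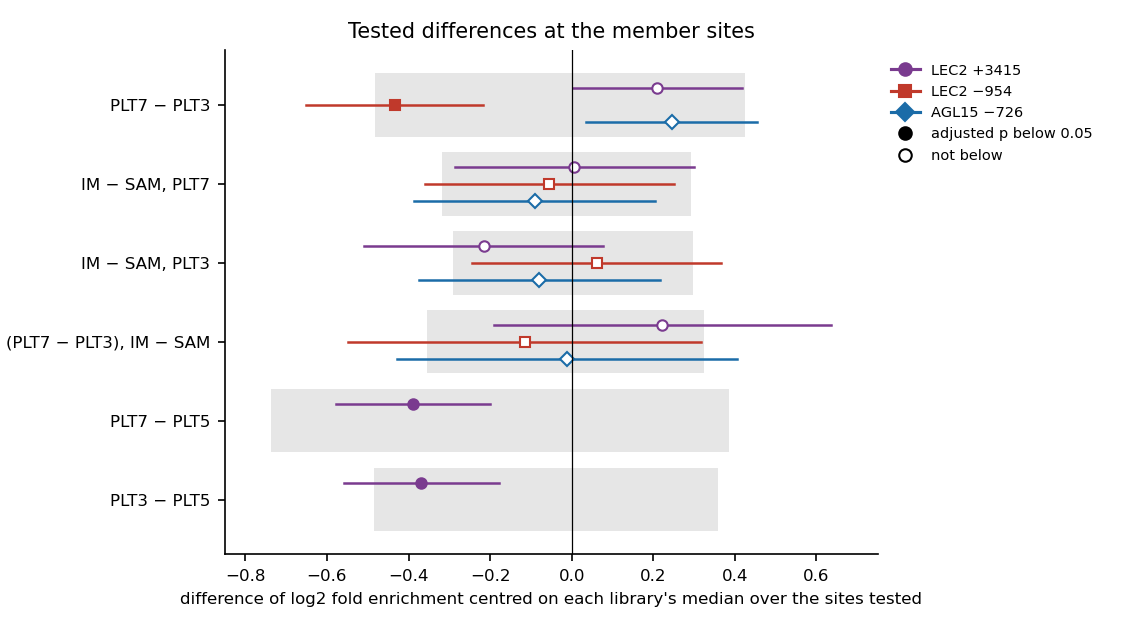
The horizontal axis gives differences of log2 fold enrichment centred on each library's median over the sites tested, rows are the 6 comparisons, points with lines are member sites with 95% intervals, filled where the limma adjusted p was below 0.05, and grey bars span the middle 90% of all sites tested. Under this centre, LEC2 −954 at −0.43 is the only filled point of the PLT7 minus PLT3 row, and no point is filled in the 3 rows on DNA source.

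The peaks of both replicates were also compared by the irreproducible discovery rate (IDR), the estimated share of irreproducible pairs at a given rank. LEC2 +3415, LEC2 −954, FUS3 +570, LEC1 −58 and AGL15 −726 had an IDR below 0.05 in both PLT7 IM and PLT7 SAM. ABI3 −634 passed in PLT7 IM, at 0.00851. The lowest values were 2.68e-06 for LEC2 +3415 and 1.32e-05 for AGL15 −726, both in PLT7 IM. For PLT3, peaks of LEC2 and AGL15 passed in either DNA source, and no peak of the other genes did. No PLT5 peak at the 5 genes passed, with 0.098 for LEC2 +3415 in PLT5 IM and 0.116 for LEC1 −58 in PLT5 SAM.

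The genes with the most similar pattern of highest fold enrichment over the 12 PLT libraries were named for each member by the root mean square difference on the log2 scale, with 1 where a library had no peak. For LEC2 they were AT2G40440, GONST3 and UBC10, at 0.10 to 0.12, against a median of 0.67 over all genes. For AGL15 they were CENP-C, AT2G27200 and PAP12, at 0.12 to 0.14, and for FUS3 they were SIP1A, AGL57 and APY1, at 0.082 to 0.095, which have consecutive locus numbers, SIP1A and AGL57 with the same values. The nearest genes of ABI3 (AT5G63063, MKS1 and AT4G06598, at 0.21 to 0.28) and of LEC1 (AT1G64253, PP2CA and AT3G42075, at 0.38 to 0.42) were less alike.

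Other genes of the embryo and seed programme were counted by the same rule, beside PLT7 peaks at 84.9% of all genes in the IM and 78.0% in the SAM. The counts of the lists of repressors, maturation factors and seed proteins are therefore a description of these genes and not a result about the programme. L1L (NF-YB6), the closest relative of LEC1, and AGL18, a MADS-domain partner of AGL15, both had PLT7 and PLT3 peaks on IM and SAM DNA and no GFP call, with fold enrichments of 7.57 to 8.37 for AGL18 in the 4 PLT7 libraries. Of 9 genes that repress the LAFL genes, 8 had PLT7 peaks in the IM and 7 in the SAM, near those shares. The highest was PKL, a chromatin remodeller, at 7.72 to 11.2 in the PLT7 libraries. PKL, with EMF2 of the Polycomb complex, was also called in PLT5 in both DNA sources. HSI2/VAL1 was called in neither PLT7 group, and SWN only in the IM. All 7 transcription factor genes of maturation had PLT7 peaks in both DNA sources, among them WRI1, a regulator of oil synthesis, ABI5 and ABI4 of abscisic acid signalling and DOG1 of seed dormancy. Of 11 seed storage protein and oleosin genes, the outputs of the programme, 8 had PLT7 peaks in the IM and 7 in the SAM, below the shares of all genes. SESA2, SESA3 and SESA4, which have consecutive locus numbers, were called in neither PLT7 group. SESA3 and SESA4, which encode 2S albumins, had no peak in any PLT library and had GFP peaks in both DNA sources.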

How the data were processed

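The data were DAP-seq peak lists of 16 libraries. The authors called peaks per library with MACS3 (q-value cutoff 0.1, peaks merged across gaps up to 100 bp, no control library), before IDR and before removal of GFP peaks. As deposited, fold enrichment is a ratio to local background. The deposited −log10 p-value and −log10 q-value come from MACS3, and the deposited score is 10 times the −log10 q-value without decimals. Per the labels, fastp 0.23.2, BWA 0.7.17 and SAMtools 1.15 were used with TAIR10. Sequence names matched RefSeq TAIR10.1, which gave annotation and sequence.

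Summits within 100 bp formed sites. Log2 fold enrichment was tested with limma 3.58.1 (R 4.3.3) with Benjamini-Hochberg adjustment over all sites tested. IDR was re-implemented in Python 3.11.15 (numpy 2.4.6, pandas 2.3.3, scipy 1.17.1) with peaks ranked by fold enrichment. The 16 bp matrix was fitted by expectation maximisation to 600 windows. These 3 steps were tested on simulated data. Figures used matplotlib 3.10.9. All 5 genes and every site in at least 2 PLT libraries were described, with 3 similar genes each. The members and lists were chosen with earlier results of these data known. Read depth was not used here.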

Additional observations from a re-analysis of the deposited data

Results flagged for a closer look

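ABI3 −634 differed between PLT7 and PLT3 in opposite ways with DNA source. PLT7 had a peak in both IM libraries (mean fold enrichment 2.95) and in neither SAM library, while PLT3 had a peak in both SAM libraries (mean 1.83) and in neither IM library. The difference was not tested, since libraries without a peak have no value. The PLT3 SAM peaks were at percentiles 18.4 and 0.273 of their libraries, and their IDR was 0.11.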

How the results depend on the processing

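Counts of the 5 genes with a peak in both replicates changed least for PLT7. In a narrower stretch of 1500 bp before and 500 bp after the gene start, they were 2 for PLT3 IM, 1 for GFP IM, 1 for PLT5 SAM and 0 for GFP SAM. A q-value threshold of 0.01 gave 0 for GFP SAM. Removal of PLT peaks that overlap GFP peaks of the same DNA source gave 4 for PLT7 IM, 3 for PLT3 IM and 2 for PLT5 IM. It left the PLT counts of the SAM unchanged. Peaks that overlap between replicates, chosen after seeing the data, gave 2 for PLT3 IM and 0 for GFP SAM. An IDR below 0.05 gave 2 for PLT3 IM, 0 for PLT5 IM and 0 for PLT5 SAM. With 1 replicate left out, counts were 3 to 5 for PLT3 SAM, 2 to 4 for PLT5 SAM and 1 to 4 for GFP SAM. Matrix matches numbered 3 at the 1% threshold. With a matrix from PLT3 IM summits, FUS3 +570 scored 7.88 and fell below the 5% threshold of 8.47, while the other matches stayed above it.

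For PLT7 minus PLT3, 3 member sites were tested, or 4 at a summit gap of 200 bp. Without PLT3 SAM replicate 2 or PLT7 IM replicate 2, the sites tested numbered 5. Those called numbered 2 without centring, 2 at the gap of 200 bp and 1 to 2 with a library left out. Centred on all peaks of the library, an alternative chosen after seeing the data, 2 were called. PLT7 minus PLT5 had LEC2 +3415 alone in the main fit. It had 1 to 2 calls with a library left out, when further member sites could enter. PLT3 minus PLT5 had 0 calls centred on all peaks. Without centring the sign turned for PLT7 minus PLT3 at LEC2 −954 (0.23), PLT7 minus PLT5 (1.16) and PLT3 minus PLT5 (0.29) at LEC2 +3415, IM minus SAM in PLT7 at LEC2 −954 (0.081) and AGL15 −726 (0.045), and the change of the protein difference at AGL15 −726 (0.060). Centred on all peaks it turned for PLT7 minus PLT5 at LEC2 +3415 (0.35), IM minus SAM in PLT7 at LEC2 −954 (0.064) and AGL15 −726 (0.028), and the change of the protein difference at AGL15 −726 (0.059). The cause was not tested. With a library left out, IM minus SAM in PLT7 ran from −0.13 to 0.14 at LEC2 +3415, −0.25 to 0.15 at LEC2 −954 and −0.23 to 0.056 at AGL15 −726, in PLT3 from −0.16 to 0.00062 at AGL15 −726, and the change of the protein difference from −0.31 to 0.082 at LEC2 −954 and −0.15 to 0.13 at AGL15 −726. LEC2 −954, where the PLT7 and PLT3 peaks overlapped GFP peaks, stayed called in PLT7 minus PLT3 with each of 8 libraries left out (−0.52 to −0.33). LEC2 +3415 was called without PLT7 SAM replicate 2 and AGL15 −726 without PLT7 SAM replicate 1 (limma adjusted p = 0.0317 and 0.0286).

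With a replicate block, 4824 sites were called for PLT7 minus PLT3, and LEC2 −954 kept its call (−0.43, limma adjusted p = 0.000883). Deviations of same-numbered libraries correlated at 0.014 to 0.161 on the same DNA (0.161 in the IM and 0.114 in the SAM between PLT7 and PLT3) and at −0.032 to 0.186 across DNA sources. Not every pair was over 0.1, so the numbers were not taken as pairs. Whether a number stands for a shared DNA pool is not given in the labels. Sites called for IM minus SAM in PLT7 numbered 20 without centring, 23 centred on all peaks, 15 and 11 at summit gaps of 50 and 200 bp and 1 with the block, against 7. They numbered 46 without PLT7 SAM replicate 1, 11 and 12 without PLT3 IM replicate 1 and 2, 3 without PLT3 SAM replicate 2, and 0 without PLT7 SAM replicate 2 or either PLT7 IM library. In PLT3 they numbered 7 at 50 bp, 2 without centring, 2 centred on all peaks and 0 with the block, against 3. They numbered 9 and 11 without PLT7 SAM replicate 1 and 2, 1 without PLT3 IM replicate 2, and 0 without PLT3 IM replicate 1 or either PLT3 SAM library. No member site was called for IM minus SAM with the block.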
